A study of Mus musculus with 6 samples.

Results

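The 4 Id genes (Id1, Id2, Id3 and Id4), the inhibitory SMAD genes Smad6 and Smad7, and Smad9 were followed in RNA of whole fetal mouse testes, as response genes of the BMP and TGF-beta pathways. The 7 genes were found by name among the 42747 rows of the count table, so no measured value picked the rows. The list of names itself was chosen with earlier results of these data known. All 7 passed the filter on low counts, which left 18383 genes for testing. The libraries came from testes of E16.5 embryos, with 3 cKO mice and 3 WT mice giving 1 library apiece. The title of the series places CK1α, a kinase whose gene is Csnk1a1, in Sertoli cells, which support the germ cells within the cords. The label cKO was therefore taken to mean that Csnk1a1 was deleted in those cells alone. The sources used here do not say which promoter drives the recombinase, which exons are deleted or what the mouse strain is.

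ID proteins are helix-loop-helix proteins that lack the basic region needed to bind DNA. They pair with E proteins and so keep them from forming DNA-binding dimers with tissue-specific partners. BMP ligands bind type I and type II receptor kinases, which phosphorylate SMAD1, SMAD5 and SMAD9, and these enter the nucleus with SMAD4 and switch on the Id genes. TGF-beta and activin act through SMAD2 and SMAD3. SMAD6 and SMAD7 are induced by these signals and feed back on them: SMAD6 acts mainly on the BMP branch, and SMAD7 on both branches. Smad9 encodes a receptor-activated SMAD, not an inhibitory one, and its transcript responds to BMP. In the testis the same receptor-activated SMADs carry the signal of the Sertoli cell hormone AMH, and ID4 is known as a marker of spermatogonial stem cells after birth.

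The sequence just before the start site was taken from the RefSeq promoter table (GRCm38.p6), in which 5 of the 7 genes were matched (Id2, Id3, Id4, Smad6 and Smad9). The 250 bases before the start of Id2, Id3, Id4 and Smad6 are shown because these genes bear on the contrast between the Id genes and the inhibitory SMAD genes. Capitals mark matches on either strand to the GC-rich SMAD1/5 site GGCGCC, the SMAD box CAGAC and the TCF/LEF site CTTTGAT. These motifs do not overlap each other in the windows shown. The windows are chr12:25096093-25096342 on the minus strand for Id2, chr4:136143572-136143821 on the plus strand for Id3, chr13:48260866-48261115 on the plus strand for Id4 and chr9:64022060-64022309 on the minus strand for Smad6.
Id2: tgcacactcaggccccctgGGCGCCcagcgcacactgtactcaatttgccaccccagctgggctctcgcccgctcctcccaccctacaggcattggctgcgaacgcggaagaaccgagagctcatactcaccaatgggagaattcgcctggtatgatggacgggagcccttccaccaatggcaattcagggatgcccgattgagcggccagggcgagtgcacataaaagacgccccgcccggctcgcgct
Id3: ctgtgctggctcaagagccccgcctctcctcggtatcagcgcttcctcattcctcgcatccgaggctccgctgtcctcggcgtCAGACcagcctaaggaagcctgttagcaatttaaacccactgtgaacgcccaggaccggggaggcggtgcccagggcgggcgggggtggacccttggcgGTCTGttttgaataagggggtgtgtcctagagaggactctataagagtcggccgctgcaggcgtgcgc
Id4: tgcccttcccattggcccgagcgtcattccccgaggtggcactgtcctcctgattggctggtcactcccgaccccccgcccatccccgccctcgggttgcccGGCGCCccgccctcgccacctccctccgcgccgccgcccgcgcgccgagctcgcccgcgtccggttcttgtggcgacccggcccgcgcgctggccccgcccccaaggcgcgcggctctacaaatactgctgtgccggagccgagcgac
Smad6: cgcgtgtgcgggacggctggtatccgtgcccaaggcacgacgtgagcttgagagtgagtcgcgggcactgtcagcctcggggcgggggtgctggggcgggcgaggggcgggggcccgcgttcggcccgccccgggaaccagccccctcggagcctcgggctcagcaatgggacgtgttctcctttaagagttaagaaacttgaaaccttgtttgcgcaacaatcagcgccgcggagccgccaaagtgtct

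GGCGCC stood once in the windows of Id2, Id4 and Smad9, at bases -231 to -226, -148 to -143 and -51 to -46 from the start. It was found in 9.59% of all 32851 promoter windows of that length. CAGAC stood at 2 places in the Id3 window, once on each strand, and was found in 42.2% of all windows. The Smad6 window held none of the 3 motifs, and CTTTGAT, found in 3.21% of all windows, was in none of the 5. The 5 windows were 62.8 to 75.6% G and C, against a median of 52.4% over all windows. A match to a short motif describes the letters only.

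Gene counts summed to 15092619 to 17431546 per cKO library and to 15281569 to 16646569 per WT library. Csnk1a1 itself stood at 396, 405 and 377 CPM in cKO libraries 1, 2 and 3 and at 371, 396 and 348 CPM in WT libraries 1, 2 and 3 (edgeR adjusted p = 0.798). CPM is a count divided by the scaled library total and set to a common depth. Since all cells of the organ and all exons enter this count, it does not check the labels. Sertoli cell markers, led by Amh, had 8 of 10 genes lower and none higher, and summed to 571 to 857 CPM in cKO, against 1901 to 2417 CPM in WT. Pregranulosa markers summed to 289 to 347 CPM in cKO and 103 to 125 CPM in WT, with 3 of 7 higher, Wnt4 the most abundant. Of all tested genes, 1.84% were lower and 1.5% higher at an edgeR adjusted p under 0.05. In bulk RNA fewer cells of a type and less RNA per cell cannot be told apart. The part of these lists in the values of the 7 genes was not tested.

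Id1 and Id2 rose in cKO testes, Smad7 fell, and Id3, Id4, Smad6 and Smad9 were not called. A gene was called at an adjusted p under 0.05 (edgeR quasi-likelihood, Benjamini-Hochberg over all tested genes). Thus 2 of 7 members were higher and 1 was lower, where 1.5% of all tested genes were called higher, 1.84% lower and 3.35% in either direction. At an unadjusted p under 0.05, 5 of 7 members differed, against 15.8% of all tested genes. For 5 members no cKO value fell within the WT range (all 4 Id genes above, Smad7 below), against 21.6% of all tested genes (10.7% above and 10.9% below). The median log2 fold change of the 7 members was 0.61, and that of all tested genes was 0.0026.

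**Figure D1:**
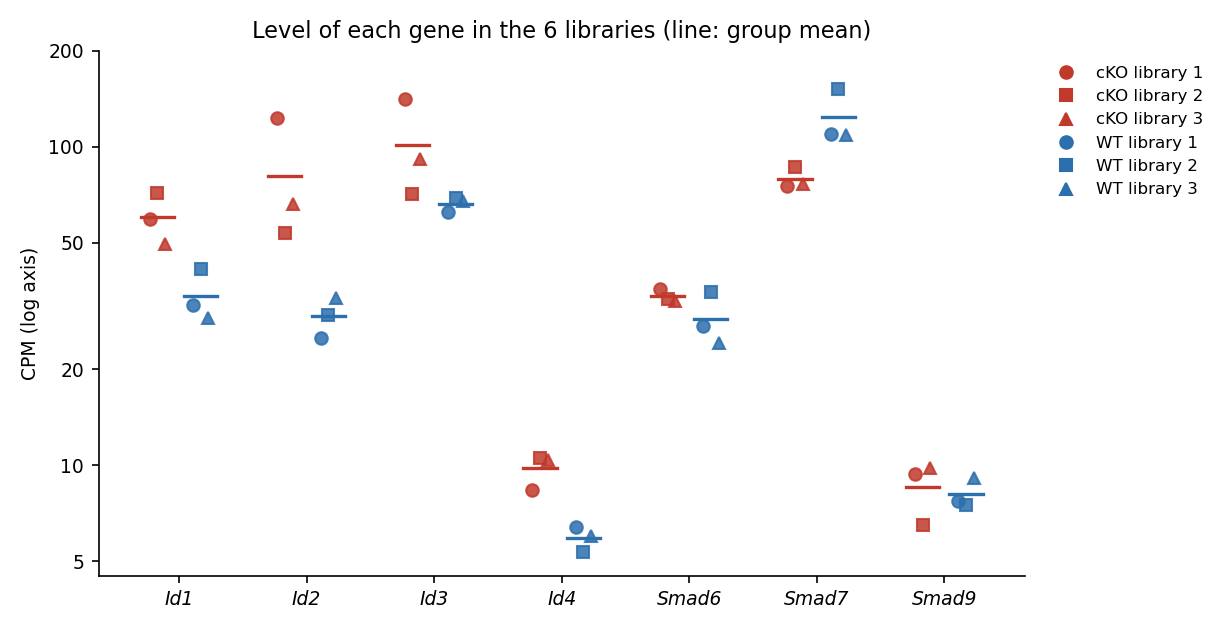
Level of each of the 7 genes in CPM (log axis) in the 3 cKO (red) and 3 WT (blue) libraries; the horizontal line is the group mean. All 3 cKO values lie above the WT values for Id1, Id2, Id3 and Id4 and below them for Smad7, while the groups overlap for Smad6 and Smad9.

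Id2 showed the largest difference of the 7 genes. Its transcript, on chromosome 12 from 23515591 to 23517882 (minus strand; C57BL/6NJ coordinates, as for each gene), stood at 123, 53.6 and 66.0 CPM in cKO libraries 1, 2 and 3, against 25.0, 29.5 and 33.5 CPM in WT libraries 1, 2 and 3. Every cKO library was above every WT library, and cKO library 1 was far above the other cKO libraries. The means were 80.9 ± 37.1 CPM in cKO and 29.3 ± 4.24 CPM in WT (SD, n = 3 each), a 2.76-fold difference (log2 fold change 1.46, SE 0.266, 95% interval 0.88 to 2.05; edgeR adjusted p = 0.0118). Without cKO library 1 the log2 fold change was 1.03 and Id2 was still called. Without WT library 1 it was 1.36 (edgeR adjusted p = 0.0793) and without WT library 2 it was 1.47 (edgeR adjusted p = 0.0594), so neither of those fits called it.

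Id1, on chromosome 2 from 161875017 to 161876176 (plus strand), was higher by a smaller factor but with less spread in cKO. It had 59.1, 71.6 and 49.5 CPM in cKO libraries 1, 2 and 3, against 31.9, 41.2 and 29.1 CPM in WT libraries 1, 2 and 3. The lowest cKO library was above the highest WT library. The difference was 1.76-fold (log2 fold change 0.82, SE 0.175, 95% interval 0.44 to 1.20; edgeR adjusted p = 0.0267), with means of 60.1 ± 11.1 CPM in cKO and 34.1 ± 6.33 CPM in WT (SD, n = 3 each). The call was lost without WT library 1 (0.78, edgeR adjusted p = 0.141) and without WT library 3 (0.72, edgeR adjusted p = 0.161).

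Id3 and Id4 had separated groups and positive fold changes that did not pass the test over all genes. Id3, on chromosome 4 from 143590386 to 143592644 (plus strand), stood at 141, 71.3 and 91.4 CPM in cKO libraries 1, 2 and 3, against 62.4, 68.9 and 67.5 CPM in WT libraries 1, 2 and 3. Library 2 of cKO lay just above the highest WT library, and library 1 far above it. The test gave an edgeR adjusted p of 0.166 at a log2 fold change of 0.61 (SE 0.207; 95% interval 0.16 to 1.07). It was 0.30 without cKO library 1 and 0.81 without cKO library 2, and without that library Id3 was called (edgeR adjusted p = 0.0159).

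Id4, on chromosome 13 from 48579184 to 48581793 (plus strand), was the least abundant Id gene. It had 8.36, 10.6 and 10.4 CPM in cKO libraries 1, 2 and 3, from 127, 159 and 181 counts, against 6.41, 5.32 and 5.98 CPM in WT libraries 1, 2 and 3, from 103, 80 and 100 counts. The cKO libraries were all above the WT libraries, and cKO library 1, the highest for Id2 and Id3, was the lowest of its group here. The test gave an edgeR adjusted p of 0.118 at a log2 fold change of 0.73 (SE 0.222; 95% interval 0.24 to 1.22), and the DESeq2 Wald test put it just past the threshold (adjusted p = 0.0497). The 5′ end of Id4 overlaps A330033J07Rik, a lincRNA gene on the minus strand with 20, 39 and 29 counts in cKO libraries 1, 2 and 3 and 49, 49 and 12 counts in WT libraries 1, 2 and 3. Whether counting used strand is not stated in the sources used here, so reads of the overlap cannot be told apart. No other member overlapped an annotated gene of the table.

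Smad7, on chromosome 18 from 78057233 to 78085754 (plus strand), was the 1 member that fell. It had 75.3, 86.1 and 76.1 CPM in cKO libraries 1, 2 and 3, against 110, 152 and 109 CPM in WT libraries 1, 2 and 3. The groups did not overlap, and WT library 2 was well above the other WT libraries. With means of 79.2 ± 6.0 CPM in cKO and 123 ± 24.5 CPM in WT (SD, n = 3 each), Smad7 was 1.56-fold lower in cKO (log2 fold change -0.64, SE 0.147, 95% interval -0.96 to -0.32; edgeR adjusted p = 0.0391). The call was lost in 7 of 17 alternative fits, against 4 for Id1 and 4 for Id2. Leaving out cKO library 1 or 3, or WT library 1, 2 or 3, each ended it, at edgeR adjusted p of 0.0665, 0.178, 0.0732, 0.142 and 0.0736 in that order, and the log2 fold change ran from -0.72 to -0.46. Of these 6 fits, the one without cKO library 2 kept it.

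Smad6, the other inhibitory SMAD gene, on chromosome 9 from 65300432 to 65372673 (minus strand), was not called. It stood at 35.7, 33.2 and 32.7 CPM in cKO libraries 1, 2 and 3, against 27.3, 35.0 and 24.2 CPM in WT libraries 1, 2 and 3. WT library 2 fell inside the cKO range. With a log2 fold change of 0.23 (SE 0.159; edgeR adjusted p = 0.528), the 95% interval ran from -0.12 to 0.59, or 0.923-fold to 1.5-fold.

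Smad9, on chromosome 3 from 55496584 to 55552808 (plus strand), stood at 9.42, 6.52 and 9.78 CPM in cKO libraries 1, 2 and 3, against 7.72, 7.52 and 9.15 CPM in WT libraries 1, 2 and 3. The groups overlapped over most of their range. With a log2 fold change of 0.08 (SE 0.234; edgeR adjusted p = 0.911), the 95% interval ran from -0.44 to 0.59, or 0.738-fold to 1.51-fold.

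**Figure D2:**
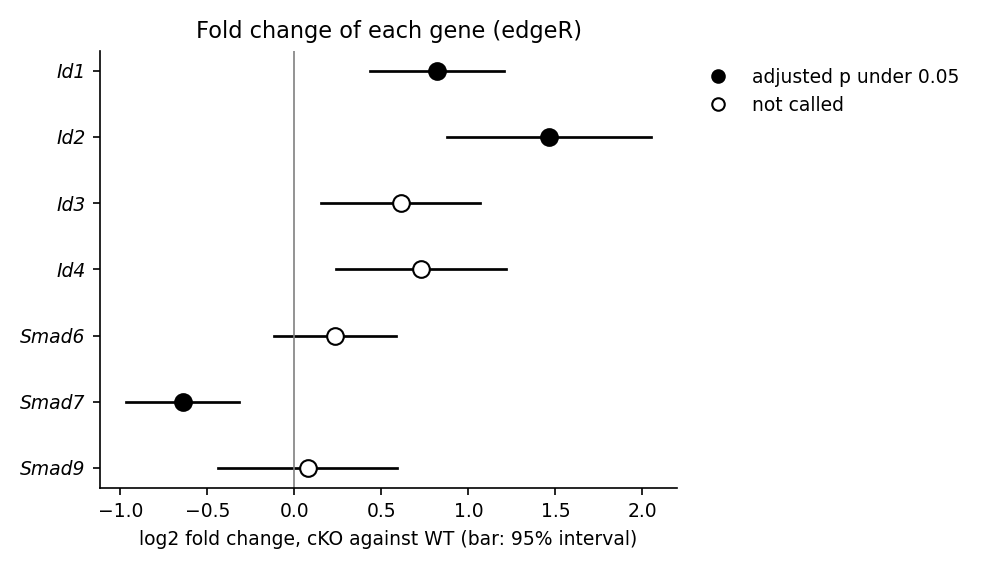
Log2 fold change of cKO against WT for each gene (x axis), with its 95% confidence interval from edgeR; filled points have an adjusted p under 0.05. Id1 (0.82), Id2 (1.46) and Smad7 (-0.64) are called; the intervals of Id3 and Id4 lie above 0 but their adjusted p do not pass, and those of Smad6 and Smad9 span 0.

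**Figure D3:**
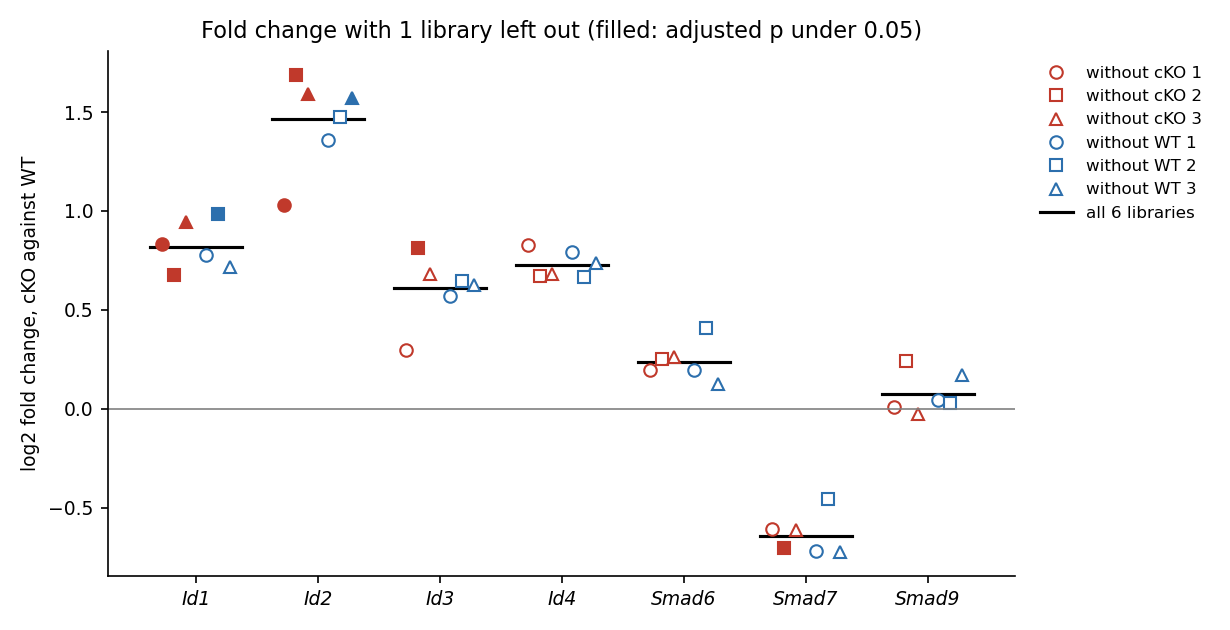
Log2 fold change of cKO against WT (y axis) for each gene in the 6 fits that each leave out 1 library, by colour and shape of the library left out; the black line is the value with all 6 libraries, and filled points have an adjusted p under 0.05. Id2 runs from 1.03 to 1.69 and Id1 from 0.68 to 0.99, Smad7 stays below 0 but is filled only without cKO library 2, and Smad9 changes sign without cKO library 3.

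The ratio of the inhibitory SMAD transcripts to each other differed between the groups and needs no scaling between libraries. On the FPKM scale (counts scaled by gene length and library depth, as deposited), Smad7 over Smad6 was 1.48, 1.82 and 1.63 in cKO libraries 1, 2 and 3, against 2.83, 3.05 and 3.17 in WT libraries 1, 2 and 3. The highest cKO ratio was far below the lowest WT ratio, and the spread within each group was small (SD 0.169 in cKO and 0.172 in WT). The exact two-sided permutation p was 0.1, the smallest that 3 against 3 libraries can give. This ratio was chosen after the values were seen.

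In levels per length Id1, Id2 and Id3 stood above the SMAD genes in cKO, whereas in WT Smad7 stood between Id1 and Id2. By mean FPKM the order in cKO was Id2 (63.2 ± 28.9), Id3 (56.0 ± 19.8), Id1 (51.4 ± 9.50), Smad7 (17.2 ± 1.32), Smad6 (10.5 ± 0.482), Id4 (5.85 ± 0.740) and Smad9 (1.58 ± 0.329). In WT it was Id3 (36.6 ± 2.05), Id1 (29.0 ± 5.49), Smad7 (26.8 ± 5.40), Id2 (22.9 ± 3.38), Smad6 (8.89 ± 1.75), Id4 (3.52 ± 0.310) and Smad9 (1.5 ± 0.166), each as SD over n = 3. The top 3 of cKO lay within each other's spread, as did Id1, Smad7 and Id2 in WT. Smad6, Id4 and Smad9 held ranks 5, 6 and 7 in every library, while Smad7 was always below Id1, Id2 and Id3 in cKO libraries and was above Id2 in WT libraries 1 and 2. Among tested genes by mean FPKM, Id2 stood at percentile 96.2 in cKO and 84.7 in WT, and Smad7 at percentile 77.7 in cKO and 87.7 in WT.

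The 4 Id genes together summed to 230, 149 and 151 FPKM in cKO libraries 1, 2 and 3, against 84.5, 99.7 and 91.8 FPKM in WT libraries 1, 2 and 3. Within that sum the make-up varied between cKO animals. Id2 made up 41.8, 28.1 and 34.2% in cKO libraries 1, 2 and 3, against 22.9, 23.2 and 28.4% in WT libraries 1, 2 and 3, and cKO library 2 lay inside the WT range (exact permutation p = 0.2, two-sided). Id3 made up 34.0, 26.5 and 33.6% in cKO, against 40.6, 38.3 and 40.7% in WT, with no overlap (exact permutation p = 0.1, two-sided, the smallest the design allows). The share of Id1 was 30.4 ± 9.77% in cKO and 31.5 ± 4.2% in WT, and that of Id4 3.51 ± 1.16% in cKO and 3.86 ± 0.651% in WT, both well within the spread (SD, n = 3 each). In all 7 shares and ratios were tested in this way, and the smallest p adjusted over them (Benjamini-Hochberg, exact permutation) was 0.233.

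**Figure D4:**
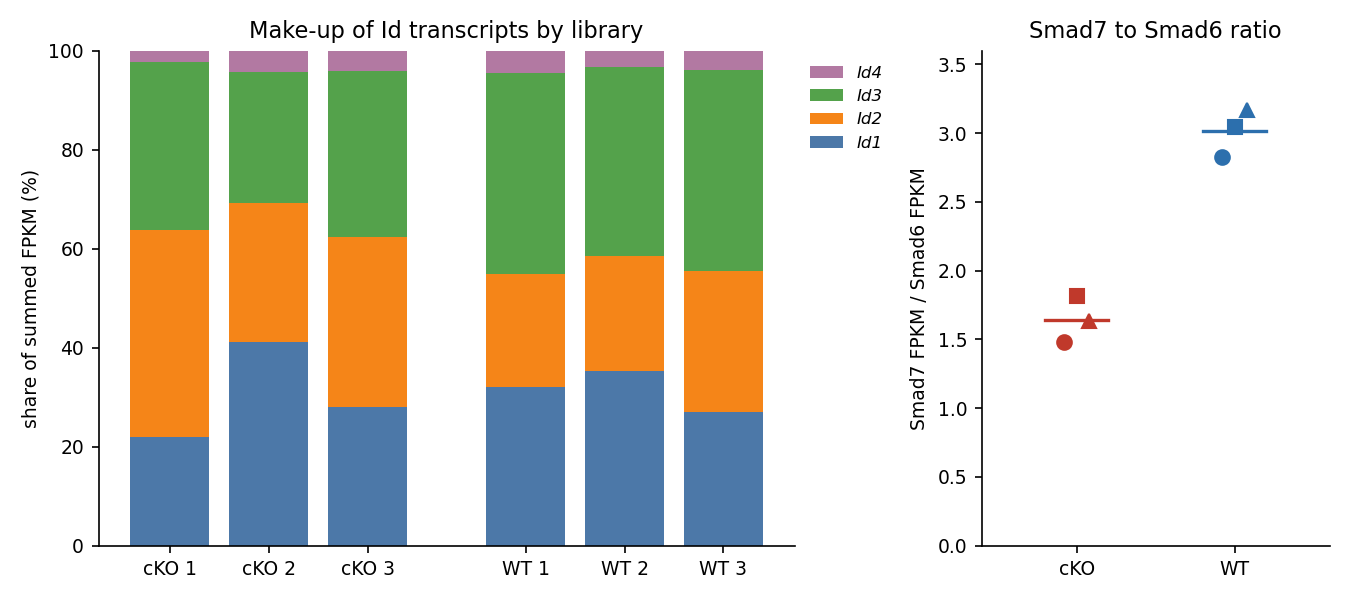
Left, share of each Id gene in the summed FPKM of the 4 Id genes (y axis, %) in each library; right, ratio of Smad7 to Smad6 FPKM in each library, with the group mean as a line. Id2 takes 41.8% in cKO library 1 and 28.1% in cKO library 2, and the ratio is 1.48 to 1.82 in cKO and 2.83 to 3.17 in WT.

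The order of the cKO libraries was not the same for all Id genes. Id2 and Id3 were highest in library 1 and lowest in library 2, while Id1 was highest in library 2. The most abundant markers of other cell types also varied within cKO. Cdh5, the vascular cadherin gene, had 272, 137 and 211 CPM in cKO libraries 1, 2 and 3 and 198, 209 and 269 CPM in WT libraries 1, 2 and 3, and Cyp17a1, a steroid enzyme of Leydig cells, had 2760, 1687 and 1965 CPM in cKO and 1918, 1735 and 1722 CPM in WT. As whole lists, 12 endothelial markers summed to 702 to 801 CPM in cKO and 641 to 706 CPM in WT. Among them 1 was higher, Kdr (log2 fold change 0.66, edgeR adjusted p = 0.0157), while Cdh5 was not called (-0.12, edgeR adjusted p = 0.836). In all, 8 of the 12 had a positive fold change and 3 an unadjusted p under 0.05. The 6 Leydig markers summed to 4939 to 6734 CPM in cKO and 3726 to 4422 CPM in WT. None of the 5 tested was called by edgeR (4 at an unadjusted p under 0.05). Of all tested genes, 1.5% were called higher by edgeR and 15.8% had an unadjusted p under 0.05. Over the cKO libraries, 4 of 12 endothelial markers, Cdh5 among them, ran in the order of Id2 and Id3 (library 1 highest, library 2 lowest), while 7 of 12 were lowest in library 1. Of the 5 tested Leydig markers 3 ran in that order and 0 were lowest in library 1. That order was counted in the endothelial and Leydig lists only. How many of all tested genes run in it was not counted, so these counts have no background. No marker on either list was at 0 in all libraries. The part of these cell types in the levels of the Id genes was not tested.

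Interstitial progenitor markers, led by Col1a2, summed to 6982 to 9309 CPM in cKO and 4678 to 6770 CPM in WT, with 0 of 6 called by edgeR (4 at an unadjusted p under 0.05; Col1a2 was called in 3 of 17 alternative fits). Peritubular markers, led by Acta2, summed to 558 to 635 CPM in cKO and 532 to 656 CPM in WT, with 1 of 5 higher. The higher one was Des (log2 fold change 0.72, edgeR adjusted p = 0.0276), while Acta2 was not called (-0.19, edgeR adjusted p = 0.634). For macrophages, led by Csf1r, the sums were 58.5 to 69.8 CPM in cKO and 52.0 to 68.9 CPM in WT, with none of 7 called by edgeR (1 at an unadjusted p under 0.05). Germ cell markers, led by Piwil2, summed to 656 to 1189 CPM in cKO and 1004 to 1392 CPM in WT, with none of 7 called by edgeR (2 at an unadjusted p under 0.05). Of 4 erythroid genes Hba-a1 was higher. The list summed to 104, 158 and 349 CPM in cKO libraries 1, 2 and 3 and 77.6 to 123 CPM in WT, so cKO library 1 lay inside the WT range. The Hba-a1 call was lost in 5 of 17 alternative fits. Among these were the fits without cKO library 3, WT library 1 or WT library 3 (edgeR adjusted p = 0.125, 0.160 and 0.177 in that order). Emx2 was the 1 higher of 5 mesonephric markers, whose sums were 57 to 74.4 CPM in cKO and 44.0 to 51.1 CPM in WT. Beside these counts, 15.8% of all tested genes had an unadjusted p under 0.05, and edgeR called 1.5% higher and 1.84% lower.

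The ligands of the family went both ways. Of 20 tested ligand genes, Tgfb2, which encodes a TGF-beta, rose, and Amh and Inhbb, which encodes the activin and inhibin beta-B subunit, fell. Tgfb2 had 128, 124 and 135 CPM in cKO libraries 1, 2 and 3, against 68.6, 79.1 and 62.5 CPM in WT libraries 1, 2 and 3 (log2 fold change 0.88, SE 0.123, edgeR adjusted p = 0.00234). Amh had 139, 280 and 85.6 CPM in cKO, against 653, 1131 and 908 CPM in WT (-2.41, edgeR adjusted p = 0.00382), and Inhbb had 86.6, 155 and 74.5 CPM in cKO, against 240, 333 and 276 CPM in WT (-1.43, edgeR adjusted p = 0.00775). Both are made by Sertoli cells, whose marker list, Amh included, was lower as given above, and its part in these values was not tested. These 3 calls held in all 17 alternative fits. Inha, the inhibin alpha subunit gene, stood at -0.57 and was not called by edgeR (adjusted p = 0.0925). It was called in 3 of 17 alternative fits. These were DESeq2 (adjusted p = 0.0156), edgeR with no filter beyond 1 count (adjusted p = 0.00424) and edgeR without cKO library 1 (adjusted p = 0.0447). The other ligand genes, the BMP genes among them, were not called by edgeR with the filter, and the list median was -0.06. Of the 20 ligand genes 6 had an unadjusted p under 0.05, against 15.8% of all tested genes.

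Receptors and the other SMADs held 1 call. Of 13 receptor genes 1 was called: Acvrl1, the type I receptor ALK1 of endothelial cells, fell to 63.9, 60.6 and 63.1 CPM in cKO libraries 1, 2 and 3, against 82.3, 112 and 105 CPM in WT libraries 1, 2 and 3 (log2 fold change -0.67, SE 0.134, edgeR adjusted p = 0.0191). That receptor was no longer called without cKO library 3, WT library 2 or WT library 3 (edgeR adjusted p = 0.0999, 0.101 and 0.113 in that order), nor with all libraries in limma-trend with a pseudocount of 0.1 or 1 (adjusted p = 0.0568 and 0.0552). Acvr1b, a type I receptor for activin, was next at -0.50 (edgeR adjusted p = 0.0644). It was called in 4 of 17 alternative fits, DESeq2 among them (adjusted p = 0.0156). Of the 13 receptor genes 5 had an unadjusted p under 0.05, against 15.8% of all tested genes. None of the 5 other SMAD genes was called by edgeR, although 3 had an unadjusted p under 0.05, against 15.8% of all tested genes. Smad1, which carries the BMP signal to the nucleus, came nearest with 58.5, 41.5 and 50.5 CPM in cKO libraries 1, 2 and 3 and 31.5, 37.9 and 39.5 CPM in WT libraries 1, 2 and 3 (0.47, edgeR adjusted p = 0.161). It was called without cKO library 2 (0.59, edgeR adjusted p = 0.0440).

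Antagonists and SMAD regulators held 1 call. Bmper, a secreted protein that binds BMPs, fell to 5.53, 5.58 and 6.04 CPM in cKO libraries 1, 2 and 3, against 8.84, 18.4 and 18.3 CPM in WT libraries 1, 2 and 3 (log2 fold change -1.41, SE 0.282, edgeR adjusted p = 0.0197). The groups were apart, with WT library 1 closest to cKO. The call was lost without cKO library 3, WT library 2 or WT library 3 (edgeR adjusted p = 0.0876, 0.0941 and 0.120 in that order). With all 6 libraries it was also lost in limma-voom (adjusted p = 0.0535) and in limma-trend on FPKM with a pseudocount of 0.1 or 1 (adjusted p = 0.0930 and 0.0981). The remaining 14 of 15 tested antagonists were not called by edgeR. At an unadjusted p under 0.05 there were 8 of 15, Bmper included, against 15.8% of all tested genes. Sostdc1, a secreted BMP and Wnt inhibitor, was nearest (0.50, edgeR adjusted p = 0.109). It was called in 3 of 17 alternative fits, DESeq2 among them (adjusted p = 0.0409). None of 11 SMAD regulators was called by edgeR (2 at an unadjusted p under 0.05, against 15.8% of all tested genes). Tob1, a protein that restrains BMP signalling through SMADs in bone, was nearest at 0.50 (edgeR adjusted p = 0.120). It was called in 1 of 17 alternative fits.

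Other genes known to respond to BMP or TGF-beta held 1 call, that of Bmper already given above. Bmper and Bambi are on both this list and that of the antagonists. Of 16 tested, 0 were higher and 1, Bmper, was lower by edgeR, against 1.5% higher and 1.84% lower over all tested genes. At an unadjusted p under 0.05 there were 6 of 16, against 15.8% of all tested genes, and the list median was 0.13. Pmepa1, a TGF-beta target that also restrains the pathway, was closest to a rise: it had 112, 110 and 107 CPM in cKO libraries 1, 2 and 3 and 81.2, 84.4 and 85 CPM in WT libraries 1, 2 and 3 (edgeR adjusted p = 0.0781 at a log2 fold change of 0.39, SE 0.105). Those groups were tight and apart, and DESeq2 called it (adjusted p = 0.0200).

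**Figure D5:**
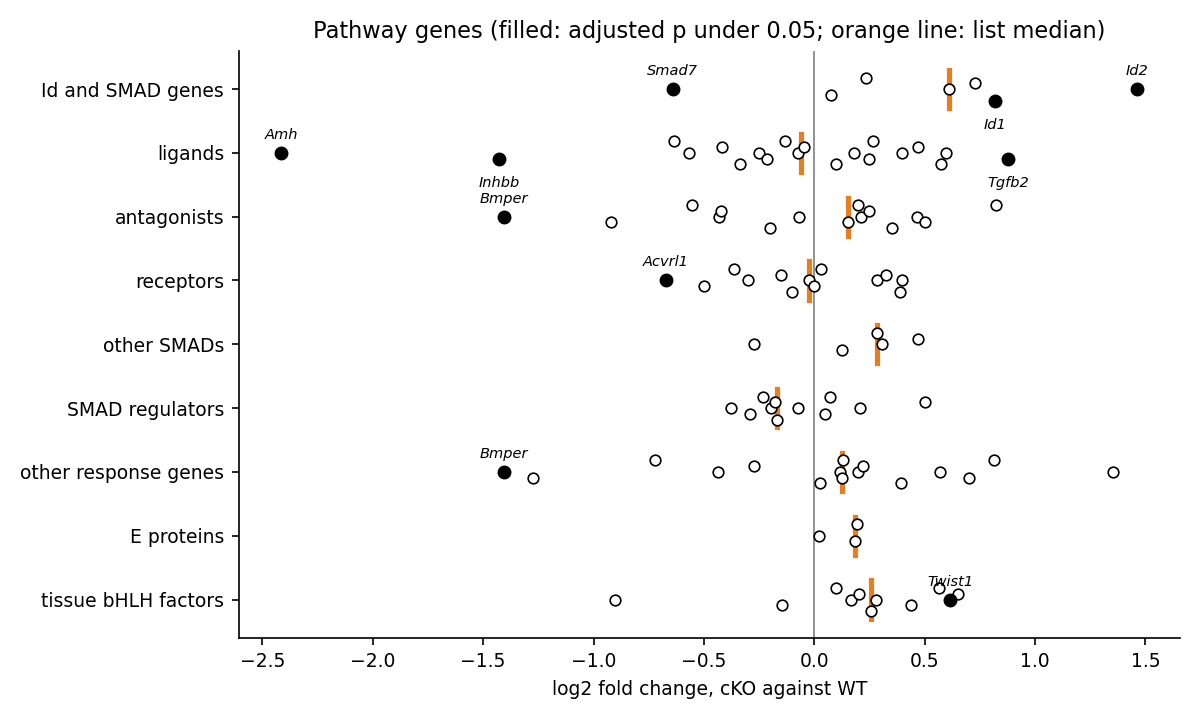
Log2 fold change of cKO against WT (x axis) of each tested gene of the pathway lists (rows); filled points have an edgeR adjusted p under 0.05 and are named, and the orange line is the list median. The Id and SMAD genes have a median of 0.61, while the medians of the other lists lie between -0.17 and 0.28.

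The E proteins, which ID proteins bind, were abundant and not called. Tcf3, which encodes E12 and E47, stood at 294, 383 and 321 CPM in cKO libraries 1, 2 and 3 and at 299, 310 and 264 CPM in WT libraries 1, 2 and 3 (log2 fold change 0.19, edgeR adjusted p = 0.540). Tcf4 averaged 173 ± 13.7 CPM in cKO testes and 152 ± 12.0 CPM in WT testes (0.19, edgeR adjusted p = 0.496), and Tcf12 averaged 200 ± 32.5 CPM in cKO testes and 197 ± 9.85 CPM in WT testes (0.02, edgeR adjusted p = 0.954; SD, n = 3 each). None of these 3 had an unadjusted p under 0.05, and neither DESeq2 nor limma-voom called them. Among 11 tested tissue-specific bHLH factors, the other class of partner, Twist1 alone was called by edgeR. It rose to 78.6, 89.8 and 88.9 CPM in cKO libraries 1, 2 and 3, against 49.9, 67.3 and 50.7 CPM in WT libraries 1, 2 and 3 (0.62, SE 0.143, edgeR adjusted p = 0.0406). That call was lost without cKO library 2 or 3 and without WT library 1 or 3 (edgeR adjusted p = 0.0560, 0.166, 0.203 and 0.224 in that order), and with all libraries in limma-trend with either pseudocount (adjusted p = 0.0764 and 0.0716). Msc, a bHLH repressor, was next at -0.90 (edgeR adjusted p = 0.0794) and was called by DESeq2 (adjusted p = 0.0210). Of the 11 bHLH factors 3 had an unadjusted p under 0.05, against 15.8% of all tested genes.

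The genes whose course over the 6 libraries was nearest to that of each called member were found by the mean absolute difference in centred log2 CPM, among genes that averaged 10 CPM or more. Nearest to Id1 were Pnp, a purine enzyme gene (0.0383), and Borcs6 (0.0581). Nearest to Id2 were Lmcd1 (0.149) and Zfp703 (0.164), and nearest to Smad7 were Epha2, an ephrin receptor gene (0.0509), and Pdlim4 (0.0545). Id2 thus had no neighbour as close as those of Id1 and Smad7. This distance also grows with the size of the changes, and Id2 had the largest of the 7 genes. Among the 7 members themselves, the closest pair was Smad6 and Smad9 (0.252) and the most distant was Id2 and Smad7 (1.0), while Id1 lay 0.281 from Id4, 0.316 from Id3 and 0.487 from Id2.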

How the data were processed

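Polyadenylated RNA of 3 cKO and 3 WT testes was sequenced on an Illumina NovaSeq, per the labels' protocols. The submitters' processing notes list HISAT2 2.0.5 and the build GRCm38. The sources used here do not state how reads were trimmed and counted, whether strand was used, or which annotation release was taken. The gene identifiers in the deposited tables are those of the C57BL/6NJ strain annotation, so coordinates of genes are those of the files and were not mixed with GRCm38. The deposited counts are whole numbers per gene and library, not normalised. The deposited FPKM values were used for levels between genes and for shares.

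Counts were fitted in R 4.3.3 with edgeR 4.0.16 (filterByExpr, TMM scaling, the quasi-likelihood functions glmQLFit and glmQLFTest, no covariates). Adjusted p (Benjamini-Hochberg) are over 18383 tested genes, with a threshold of 0.05. A standard error is the absolute log2 fold change divided by the square root of F. Intervals are 95% confidence intervals of the log2 fold change, whose standard error takes in the fitted spread between animals. Alternatives were other scaling factors, DESeq2 1.42.0, limma 3.58.1 (voom, and trend on log2(FPKM + 0.1) and log2(FPKM + 1)), other filters, the replicate block and leaving out each library. A log2(FPKM + pseudocount) fold change understates low genes. The fit was also run on counts simulated from its own fitted spread, which cannot show that the model suits these libraries. Pairs of libraries within a group had a chi-square of 13.5 to 40.5 per degree of freedom, well over sampling noise, so none was taken as a duplicate.

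The members, 19 gene lists (176 of 179 symbols matched, 1 through a RefSeq synonym) and the naming rule were chosen with earlier results of these data known. The rule took all members, the called genes and the next gene by p in each pathway list (at most 4), the E proteins, the 2 nearest patterns of each member (given for called members) and the most abundant marker of each cell type list. Des and Kdr were named besides, after their values were seen.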

Additional observations from a re-analysis of the deposited data

How the results depend on the processing

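Over 17 alternatives, the log2 fold changes of Id1, Id2, Id3, Id4 and Smad6 stayed above 0 and that of Smad7 below it. The calls of Id1, Id2 and Smad7 held under every other scaling, DESeq2, limma-voom and other filters with all 6 libraries. They were lost in limma-trend on log2(FPKM + 0.1) (0.82, 1.38 and -0.62 for Id1, Id2 and Smad7) and on log2(FPKM + 1) (0.80, 1.35 and -0.59), which called 0 members in either direction. Id3 was called with no filter beyond 1 count (0.62) and Id4 by DESeq2 (0.73). In that unfiltered fit the edgeR adjusted p of Id2 was 2.24e-18, against 0.0118 in the main fit, so its calls are not on the same footing. With 1 library left out, values ran from 0.68 to 0.99 for Id1, 1.03 to 1.69 for Id2, 0.30 to 0.81 for Id3, 0.67 to 0.83 for Id4, 0.12 to 0.41 for Smad6, -0.72 to -0.46 for Smad7 and -0.027 (without cKO library 3) to 0.24 for Smad9, and 0 to 3 members were called higher and 0 to 1 lower. The cause of these changes was not tested.

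Over all genes the count was 527 higher and 574 lower by DESeq2, 613 and 651 with no filter beyond 1 count, and 149 and 223 in limma-trend with a pseudocount of 0.1. With a pseudocount of 1 it was 156 higher. With 1 library left out it ran from 105 to 342 higher and from 167 to 399 lower, so the share of called genes set beside the members depends on the libraries. The uncalled Tcf12 turned to -0.0033 with library totals alone and ran from -0.11 to 0.11 with 1 library left out, and the uncalled Cdh5 ran from -0.37 to 0.10. The difference in the Smad7 to Smad6 ratio ran from -1.46 to -1.29 with 1 library left out, an alternative added after seeing the data.

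Same-numbered cKO and WT libraries had correlations of deviations of 0.0172, 0.184 and 0.0325 for numbers 1, 2 and 3. Libraries 2 and 3 of cKO correlated best with the WT library of their own number, and cKO library 1 with WT library 3 (0.157). The numbers were not taken as pairs, but with 3 libraries a group these values cannot exclude pairing. With a replicate block Id1 stood at 0.82, Id2 at 1.37, Id3 at 0.55, Id4 at 0.72, Smad6 at 0.25, Smad7 at -0.63 and Smad9 at 0.06. That fit called 2 members higher and 1 lower. Over all genes it called 324 higher and 372 lower, against 276 and 339 without the block. Smad9 and Id4 rest on 80 to 181 counts a library, which limits how small a difference could be seen.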

Other observations

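Within 250 kb of a member, 42 genes were tested, of which 1 was higher and 3 were lower by edgeR, against 1.5% higher and 1.84% lower over all tested genes. These 4 were named after their values were seen. Defb19 among them is also on the Sertoli cell marker list, of which 8 of 10 genes were lower as given above. Near Id1, which rose, the beta-defensin gene Defb19 fell to 14.6, 11.6 and 13.1 CPM in cKO libraries 1, 2 and 3, against 73.1, 76.1 and 82.4 CPM in WT libraries 1, 2 and 3 (log2 fold change -2.56, edgeR adjusted p = 5.06e-06), and the forkhead gene Foxs1 fell to 11.9, 8.44 and 10.1 CPM in cKO, against 26.3, 27.1 and 37.7 CPM in WT (-1.59, edgeR adjusted p = 0.00130). Near Smad7, which fell, Ctif, a gene of the cap-binding translation machinery, fell to 42.1, 44.1 and 43.6 CPM in cKO, against 59.1, 76.5 and 77.8 CPM in WT (-0.72, edgeR adjusted p = 0.0148). Near Id3, Asap3 rose by 0.62 on the log2 scale (edgeR adjusted p = 0.0431).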
